A study of Mus musculus with 26 samples.

Results

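Lymphoid priming and early B-cell genes were followed in myeloid progenitors and mast cells. They are the 10 genes Dntt, Flt3, Il7r, Rag1, Rag2, Ebf1, Pax5, Cd79a, Vpreb1 and Igll1, out of 52636 genes measured, and were taken by name as a list. RNA sequencing covered 26 mouse libraries in 6 groups. Granulocyte-monocyte progenitors (GMPs) and common myeloid progenitors (CMPs) were sorted from bone marrow of female wild-type (WT) and NSP4 knockout (KO) mice, with 4 libraries per genotype and cell type. Bone marrow-derived mast cells (BMMCs) came from male mice, with 5 libraries per genotype. The KO mice lack Prss57 (Prss57-/-), which encodes the granule serine protease NSP4, and WT mice were the controls. All mice were on a C57BL/6N background. The strain that served for these experiments carried a germline deletion of exon 2. Their ages are not given in the labels. GMPs were gated as Lin- Sca-1- CD117+ CD34+ cells with high CD16/32, and CMPs as the same cells with low CD16/32. BMMCs were grown from sorted GMPs in IL-3 and SCF, carried the label P3, and were sequenced in another run than the progenitors. Between BMMCs and progenitors, cell type, sex and run therefore cannot be told apart, and levels in BMMCs are set beside those in progenitors without a test.

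Lymphocytes arise from multipotent progenitors that begin to transcribe lymphoid genes at a low level before they lose myeloid potential, a state called lymphoid priming. FLT3 is the receptor tyrosine kinase for FLT3 ligand on multipotent and lymphoid-primed progenitors. Dntt encodes terminal deoxynucleotidyl transferase (TdT), the polymerase that adds untemplated nucleotides at V(D)J joints, and is an early marker of priming. The interleukin-7 receptor alpha chain (Il7r) carries the signal that B- and T-cell progenitors need, and Rag1 and Rag2 encode the recombinase that cuts antigen receptor genes. EBF1 and PAX5 are the transcription factors that specify and commit B cells. CD79a is a signalling chain of the B-cell receptor, and VpreB1 and λ5 (Igll1) together form the surrogate light chain of the pre-B-cell receptor.

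The genes lie on 8 chromosomes of GRCm38. Rag1 (chr2:101638282-101649501, reverse strand) and Rag2 (chr2:101624718-101632529, forward strand) are 5752 bases apart. Igll1 (chr16:16860671-16863985) and Vpreb1 (chr16:16868403-16870843) are both on the reverse strand and 4417 bases apart. Dntt is at chr19:41029275-41059525 on the forward strand, with 13 exon blocks, and Flt3 is at chr5:147330741-147400489 on the reverse strand, with 25. The 250 bases before the RefSeq start site (GRCm38.p6) are shown for Dntt and Flt3, the genes that were lower in GMPs than in CMPs in both genotypes. They are also shown for Igll1, which was called higher in GMPs in WT mice only. The Dntt window is chr19:41029025-41029274, the Flt3 window chr5:147400490-147400739 and the Igll1 window chr16:16863986-16864235. Each is written 5′ to 3′ on the gene's own strand, and capitals mark matches to the motifs described after the sequences.
Dntt: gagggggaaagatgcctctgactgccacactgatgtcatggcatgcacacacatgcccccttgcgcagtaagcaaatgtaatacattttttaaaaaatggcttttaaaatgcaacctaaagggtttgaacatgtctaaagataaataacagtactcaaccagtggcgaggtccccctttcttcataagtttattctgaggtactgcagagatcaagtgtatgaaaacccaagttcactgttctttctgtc
Flt3: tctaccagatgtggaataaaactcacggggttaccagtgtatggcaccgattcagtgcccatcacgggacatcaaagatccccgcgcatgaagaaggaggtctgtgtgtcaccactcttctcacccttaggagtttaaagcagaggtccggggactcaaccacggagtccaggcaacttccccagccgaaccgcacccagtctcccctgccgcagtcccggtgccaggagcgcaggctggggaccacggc
Igll1: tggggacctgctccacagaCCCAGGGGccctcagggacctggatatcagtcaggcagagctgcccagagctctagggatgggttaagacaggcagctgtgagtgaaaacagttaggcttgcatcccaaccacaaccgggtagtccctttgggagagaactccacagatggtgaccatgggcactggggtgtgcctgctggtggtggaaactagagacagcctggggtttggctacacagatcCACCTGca

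Both strands were searched for CAGGTG, an E-box that E2A binds, CCCNNGGG, the core of the EBF motif, TGGGAA, an Ikaros motif, and GAGGAAGT, a PU.1 motif. Among the 32851 RefSeq promoters of this length, 17.2% held the E-box, 11.8% the EBF core, 21.6% the Ikaros motif and 2.44% the PU.1 motif. The Igll1 window held the EBF core at position -231 and the E-box, on the other strand, at position -8 from the start site. Outside the printed windows, E-boxes were found before Rag1 (position -135), Cd79a (-154) and Vpreb1 (-88), and Ikaros motifs before Rag1 (-52) and before 1 of the 2 listed starts of Ebf1 (-207). The windows of Dntt, Flt3, Il7r, Rag2 and Pax5 held none of these letters. A match describes the letters of the window and was not tested for binding.

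The libraries held 35501671 to 51497962 reads on genes in GMPs, 32078404 to 53264762 in CMPs and 18627626 to 28647216 in BMMCs. A level is given as normalized RPKM, the authors' reads per gene length and sequencing depth adjusted by a size factor, and a count of 3 or fewer reads in a library was taken as the floor. Prss57 itself had 18064 to 26556 reads in WT GMPs and 6 to 25 in KO GMPs, 2261 to 3926 in WT CMPs and 1 in each KO CMP library, and at most 27 in BMMCs. The sorts carried their markers. Of 8 GMP markers, 7 were higher in WT GMPs than in WT CMPs, where 6.28% of all genes tested were. Of 8 CMP and megakaryocyte-erythroid markers, 7 were lower, where 6.53% of all genes tested were. In KO mice these numbers were 5 and 7, where 4.04% and 4.38% of all genes tested were. The criteria were at least 2-fold and an adjusted p below 0.01 from edgeR. The GMP markers include Fcgr3, the gene of CD16, on which the gates were set. The KO CMP libraries were less alike than the WT CMP libraries, with median correlations to the rest of their group of 0.946 to 0.966 against 0.973 to 0.989. KO CMP library 2 had 11.0% of its reads in its top 10 genes, against 4.61% to 7.54% in the other CMP libraries of both genotypes. KO BMMC library 3 correlated at 0.897 with its group, against 0.990 or more for the other BMMC libraries. Its macrophage and dendritic cell markers summed to 179 CPM (reads scaled to the library total) against 1658 to 2242 in the other KO BMMC libraries, and its mast cell markers to 84379 CPM against 30421 to 43457. Some of the values that rest on these libraries are also given without them.

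**Figure D1:**
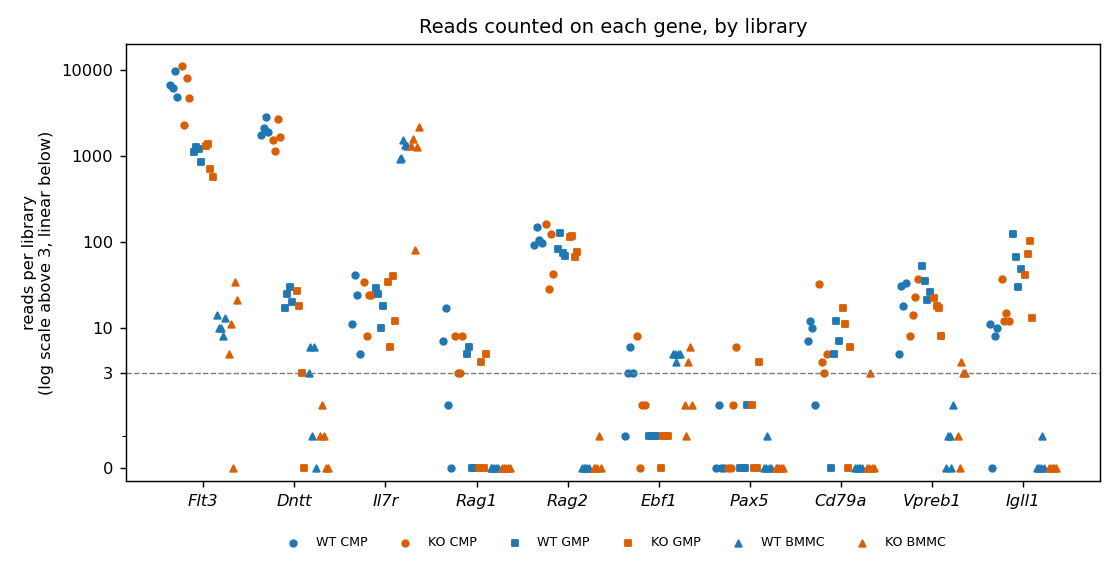
Reads counted on each of the 10 genes in each library (points; vertical axis logarithmic above 3 reads and linear below, dashed line at the floor of 3), by cell type and genotype. Flt3 and Dntt were the only genes above 1000 reads in CMP libraries, Il7r was the only one above 100 reads in BMMC libraries, and Rag1, Ebf1 and Pax5 had at most 17 reads in any library.

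The question asked of the GMP and CMP libraries was how far lymphoid transcripts persist from the CMP gate to the GMP gate. In WT mice, Dntt and Flt3 were lower in GMPs and Igll1 was higher, whereas Il7r, Rag2 and Vpreb1 were not called. Of the 10 genes, 6 had enough reads to be tested by edgeR, and 3 of these were called, 1 higher and 2 lower. A call needs at least a 2-fold difference and an adjusted p below 0.01, which 12.8% of the 14967 genes tested met (6.28% higher and 6.53% lower in GMPs). In KO mice, Dntt and Flt3 were lower again and no tested gene of the 10 was higher, for 2 calls of 6, where 8.42% of the 14959 genes tested were called (4.04% higher and 4.38% lower in GMPs). Between GMPs and CMPs, the 6 tested genes had a median log2 fold change of -0.20 and all genes one of -0.02 in WT mice, and -0.22 and -0.03 in KO mice. These RNA levels are from bulk cells, so that fewer cells with a transcript and less transcript per cell cannot be told apart. The libraries of a group are described as biological replicates, without saying whether each came from a separate mouse, and the p-values measure the spread between these libraries.

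Dntt had the largest fold difference between CMPs and GMPs of the 6 genes tested, while Flt3 had the largest difference in normalized RPKM. The WT CMP libraries held 1755, 2102, 2859 and 1912 Dntt reads, or 17.7, 19.2, 21.2 and 22.0 normalized RPKM, and the WT GMP libraries held 17, 25, 30 and 20 reads, or 0.170, 0.194, 0.278 and 0.175 normalized RPKM. Every GMP library was above the floor, and no GMP library came near a CMP library. Dntt fell by 6.59 on the log2 scale from CMPs to GMPs (95% interval -7.03 to -6.15, adjusted p = 1.04e-07 from edgeR), which is 96.4-fold lower. In KO mice, the CMP libraries held 1544, 1149, 2717 and 1656 reads, or 11.1, 19.2, 19.5 and 19.1 normalized RPKM. The KO GMP libraries held 27, 18, 3 and 0 reads, so that 2 of the 4 were at or under the floor. There edgeR estimated a log2 fold change of -7.28 (standard error 0.685, adjusted p = 0.000179), and -7.91 to -6.93 without any 1 library. In both genotypes the exact two-sided permutation test on normalized RPKM gave p = 0.0286, the smallest that 4 libraries against 4 allow. Ranked by mean normalized RPKM, Dntt was gene 3648 of 22421 above 0 in WT CMPs and gene 14070 of 22159 in WT GMPs.

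Flt3, the FLT3 ligand receptor, was the most abundant of the 10 genes per length in every progenitor group and kept a measurable level in GMPs. It was at 39.0, 32.6, 41.4 and 32.6 normalized RPKM in the WT CMP libraries and at 6.36, 5.70, 6.52 and 4.33 in the WT GMP libraries. Every CMP library was above every GMP library. Flt3 fell by 2.65 on the log2 scale (95% interval -3.00 to -2.30, adjusted p = 1.73e-06 from edgeR), or 6.28-fold. The KO CMP libraries were more spread, at 46.0, 22.0, 33.3 and 31.4 normalized RPKM, and the KO GMP libraries were at 5.88, 7.07, 3.92 and 4.07. Again the groups did not overlap, and edgeR estimated a log2 fold change of -2.63 (standard error 0.288, adjusted p = 0.000367), between -2.80 and -2.42 with any library left out. The lowest value among KO CMPs was that of library 2, which stood apart in the share of its top genes. Flt3 reads numbered 849 to 1263 per WT GMP library and 4853 to 9584 per WT CMP library, so counting error is small for both.

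Igll1, which encodes the λ5 chain, went the other way in WT mice at far fewer reads. The WT GMP libraries held 122, 67, 30 and 48 reads, or 2.98, 1.27, 0.681 and 1.03 normalized RPKM, and the WT CMP libraries held 11, 0, 8 and 10 reads, or 0.271, 0, 0.145 and 0.282 normalized RPKM. All GMP libraries were above all CMP libraries, but they differed among themselves by more than 4-fold. By edgeR it differed by 3.12 on the log2 scale (standard error 0.763, 95% interval 1.43 to 4.81, adjusted p = 0.00984), just inside the threshold. It kept the call under 4 of 14 alternatives and lost it in all 8 fits that left out a WT library, with adjusted p-values of 0.0101 to 0.0230 there and log2 fold changes of 2.56 to 3.44. In KO mice, GMPs held 41, 72, 102 and 13 reads and CMPs 37, 12, 15 and 12. These groups overlapped, and the log2 fold change of 1.60 was not called (standard error 0.588, adjusted p = 0.0798 from edgeR, exact permutation p = 0.0857). Of the 6 genes tested by edgeR, Dntt, Flt3 and Igll1 did not overlap between GMPs and CMPs in WT mice, a property of 31.5% of the genes tested. In KO mice this held for Dntt and Flt3 of the 6 and for 28.5% of the genes tested. Ebf1, which was not tested by edgeR, did not overlap in WT mice either, at 1 read in each GMP library.

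**Figure D2:**
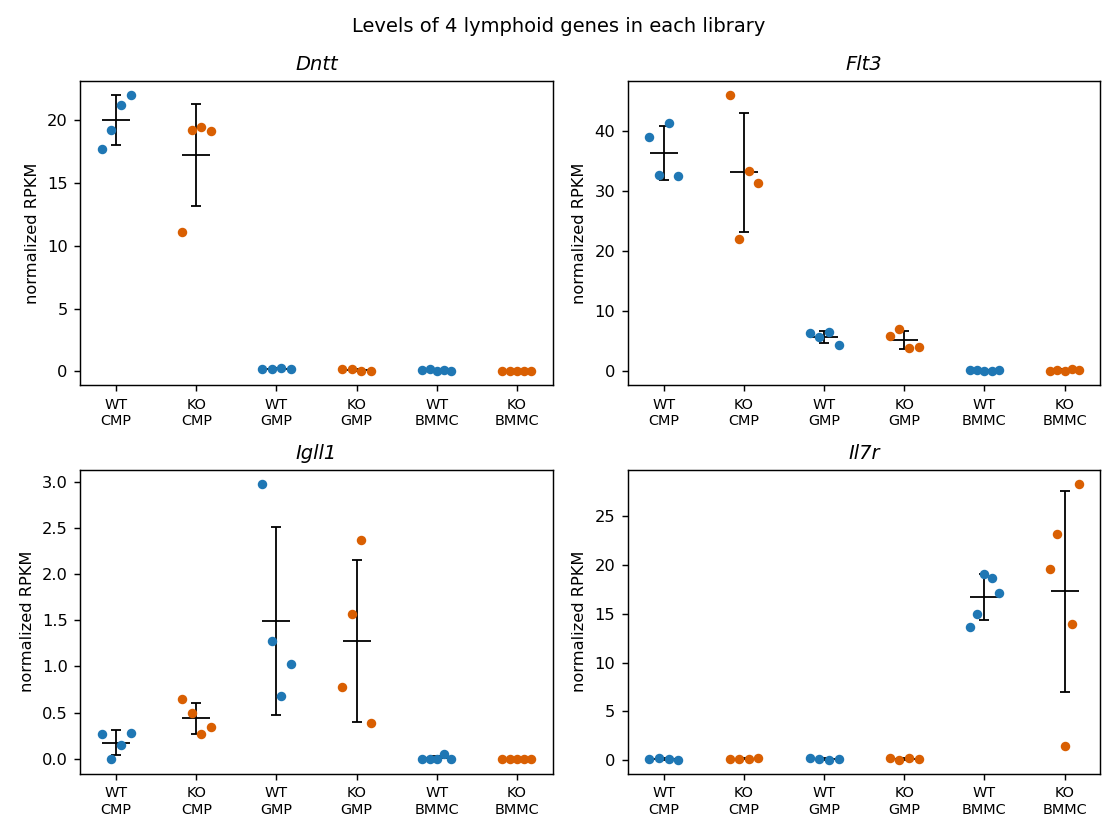
Normalized RPKM (vertical axis, linear, own scale per gene) of Dntt, Flt3, Igll1 and Il7r in each library (points), with the group mean and SD (n = 4 for CMPs and GMPs, n = 5 for BMMCs), WT in blue and KO in orange. Dntt and Flt3 were high in CMPs. Igll1 had its highest group means in GMPs, but KO GMPs and KO CMPs overlapped and did not differ by a call. Il7r was above 1 normalized RPKM only in BMMCs, where KO library 3 lay at 1.48.

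Il7r, the interleukin-7 receptor alpha chain, was near the floor in all progenitor groups. Its reads numbered 5 to 41 per WT CMP library and 10 to 29 per WT GMP library, for means of 0.120 ± 0.0920 and 0.122 ± 0.0545 normalized RPKM (SD, n = 4 each). The log2 fold change between them was 0.02 with a 95% interval of -1.30 to 1.35 (adjusted p = 0.977 from edgeR). A 2-fold difference in either direction lay within the interval and could not be told from no difference with these libraries. KO CMPs and GMPs were at 0.137 ± 0.0435 and 0.140 ± 0.0941 normalized RPKM (SD, n = 4 each), and differed by 0.07 on the log2 scale (95% interval -1.26 to 1.39). The antibodies that the study lists for staining progenitors include IL-7Rα and B220 in the lineage channel. Whether the sort for RNA used the same set is not given in the sources used here.

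BMMCs had the highest Il7r levels of the series. The WT BMMC libraries were at 13.6, 15.0, 19.1, 18.7 and 17.2 normalized RPKM, from 920 to 1527 reads each, where no progenitor library exceeded 0.252. The KO BMMC libraries were at 19.6, 23.2, 1.48, 14.0 and 28.4 normalized RPKM. All KO libraries except library 3 lay at or above the lowest WT library, and library 3 had 81 Il7r reads. The subunits with which the chain pairs were also detected in BMMCs. These genes were singled out after their values were seen. Crlf2, the thymic stromal lymphopoietin (TSLP) receptor chain, was at 283 to 363 normalized RPKM in WT and 197 to 349 in KO BMMCs, and Il2rg, the common gamma chain, at 131 to 146 and 121 to 175. Both were present in progenitors as well, with Crlf2 at 43.6 to 57.8 and Il2rg at 13.4 to 20.3 normalized RPKM over the WT progenitor libraries. KO BMMC library 3 held the lowest Crlf2 and the highest Il2rg value of its group. Macrophage and dendritic cell markers summed to 1234 to 1677 CPM in WT BMMCs, with all 6 markers above the floor. The part of such cells in the Il7r level was not tested.

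The recombinase genes were unequal. Rag2 had 28 to 159 reads in every progenitor library, while Rag1 had 0 to 17. Rag2 stood at 0.570, 0.835, 0.489 and 0.702 normalized RPKM in WT CMPs and at 0.509, 0.603, 0.427 and 0.370 in WT GMPs, and the groups overlapped (log2 fold change -0.42, 95% interval -0.99 to 0.14, adjusted p = 0.210 from edgeR). KO CMPs ranged from 0.291 to 0.711 and KO GMPs from 0.389 to 0.647 normalized RPKM (log2 fold change 0.25, adjusted p = 0.608 from edgeR). In BMMCs there was 1 Rag2 read in the 10 libraries and no Rag1 read, so that both genes were under the floor in every BMMC library. The exons of Rag2 share 208 bases, 6.1% of their length, with B230118H07Rik on the opposite strand, and 80 bases of Rag1 overlap the same gene on its own strand. B230118H07Rik had 2158 to 3653 reads in progenitors and 251 to 413 in BMMCs. The sources used here do not give the strand setting of the counting, so reads of Rag2 and of this gene in the shared bases cannot be told apart. Rag1 reads were at or under the floor in 8 of the 16 progenitor libraries, and its means of 0.0194 in WT CMPs and 0.00777 in WT GMPs overlapped (exact permutation p = 0.457).

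Ebf1 and Pax5, the factors of B-cell specification and commitment, were at or near the floor throughout. Ebf1 had 1, 3, 6 and 3 reads in WT CMPs and 1 in each WT GMP library. Its groups did not overlap (exact permutation p = 0.0286, the smallest possible), but all GMP libraries and 3 of 4 CMP libraries were at or under the floor, so no fold change is given. KO CMPs held 8, 0, 2 and 2 Ebf1 reads and KO GMPs at most 1. WT BMMCs held 4 or 5 Ebf1 reads in every library and KO BMMCs 1 to 6. Pax5 had 0 reads in 3 of 4 WT CMP and 3 of 4 WT GMP libraries, at most 6 reads in any progenitor library, and 1 read in the 10 BMMC libraries together. Neither gene was tested by edgeR in any comparison.

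Cd79a, one of the paired signalling chains of the B-cell receptor, had 2 to 12 reads in WT CMPs and 0 to 12 in WT GMPs, for means of 0.101 ± 0.0520 and 0.0772 ± 0.0679 normalized RPKM (SD, n = 4 each). KO CMP library 1 held 32 reads, against 3 to 5 in the other KO CMP libraries. No BMMC library held a Cd79a read except KO library 3, with 3. Its partner Cd79b, singled out after its values were seen, was at 26.8 to 40.3 normalized RPKM in WT CMPs and 38.2 to 47.0 in WT GMPs, from 2080 to 3311 reads per library. In BMMCs Cd79b had at most 19 reads. The chains of this pair were thus more than 100 times apart in WT progenitors. Ighm, the immunoglobulin mu heavy chain gene, was likewise at 98.4 to 111 normalized RPKM in WT CMPs and 119 to 153 in WT GMPs. The B-cell surface gene Ms4a1 averaged at most 0.141 CPM, which is another scale, in each progenitor group. Other B and plasma cell markers varied in WT GMPs. Jchain was at 20.2 to 46.0 and Cd74 at 6.98 to 18.7 normalized RPKM, and Fcer2a and Cr2 were at or under the floor.

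Vpreb1 had 5, 31, 18 and 33 reads in WT CMPs and 52, 35, 21 and 26 in WT GMPs. The libraries of the cell types overlapped, with a log2 fold change of 0.54 (95% interval -0.77 to 1.85, adjusted p = 0.490 from edgeR). KO CMPs held 8, 14, 23 and 37 reads and KO GMPs 22, 18, 17 and 8, with a log2 fold change of -0.50 (adjusted p = 0.528 from edgeR). Vpreb1 and Igll1 reached their highest WT level in the same library, GMP library 1, at 1.44 and 2.98 normalized RPKM. In KO GMPs the highest libraries were different, library 1 for Vpreb1 and library 3 for Igll1. The near-identical copy Vpreb2 had at most 3 reads in any library, and reads that align to both copies were not counted. Vpreb1 shares 108 bases, 9.0% of its exons, with Top3b on the opposite strand, which had 993 to 8572 reads in progenitors and 792 to 1179 in BMMCs. In BMMCs, Vpreb1 had 0 to 4 reads.

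Flt3 led the order of levels per length in every progenitor group. In WT CMPs the order was Flt3, Dntt, Rag2, Vpreb1, Igll1, Il7r, Cd79a, Rag1, Ebf1 and Pax5. Flt3 and Dntt did not overlap with each other or with the rest in any library, and all later neighbours in the order overlapped. In WT GMPs it was Flt3, Igll1, Vpreb1, Rag2, Dntt, Il7r, Cd79a, Rag1, Ebf1 and Pax5, so that Dntt moved from the second to the fifth place. There only Flt3 and Igll1, and Rag2 and Dntt, were neighbours without overlap. In KO mice, Flt3 and Dntt led in CMPs and Flt3 and Igll1 in GMPs, where Dntt was in the seventh place and overlapped with both neighbours. In WT BMMCs, Il7r was followed by Flt3 at 0.136 ± 0.0332 normalized RPKM (SD, n = 5), from 8 to 14 reads a library, and every other gene averaged under 0.1. The summed level of the 10 genes was 202 to 263 CPM in WT CMPs, 22.5 to 32.7 in WT GMPs and 43.8 to 58.4 in WT BMMCs.

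**Figure D3:**
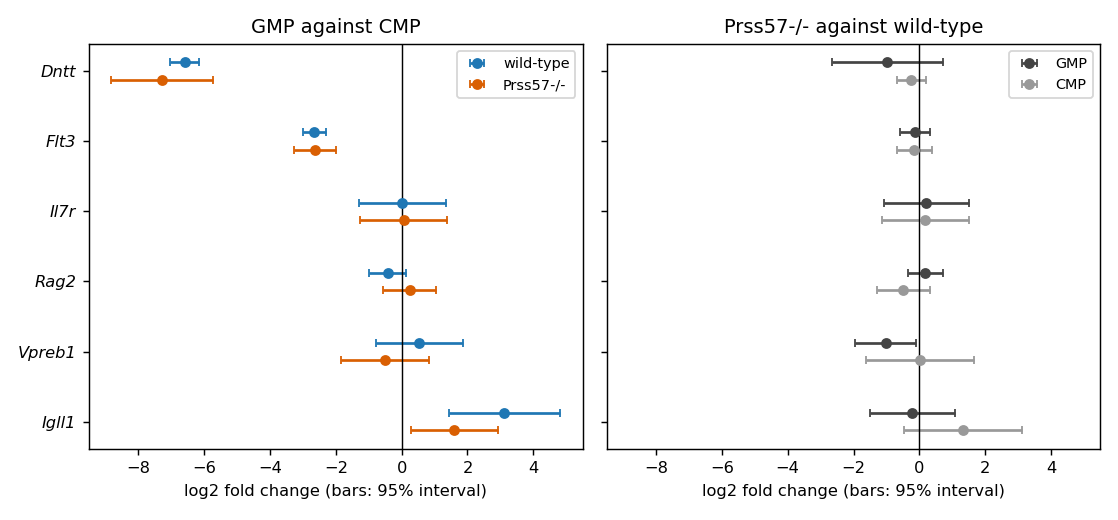
Log2 fold changes (points) with 95% intervals (bars) from edgeR for the 6 genes tested in GMPs against CMPs (left, WT in blue and KO in orange) and in KO against WT (right, GMPs dark and CMPs light). On the left, the intervals of Dntt and Flt3 lie below -1 in both genotypes; on the right all but that of Vpreb1 in GMPs include 0.

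The study was made to ask what the loss of NSP4 changes in these cells. No gene of the 10 was called between genotypes in any cell type. In GMPs 0 of 6 tested genes were called, where 0.00681% of the 14689 genes tested were. In CMPs it was 0 of 6, where 0.0067% of 14916 were, and in BMMCs 0 of 2, where 0.0% of 13938 were. At an unadjusted p under 0.05, edgeR gave 119 genes in GMPs (0.81% of those tested), 76 in CMPs (0.51%) and 332 in BMMCs (2.38%). Of these, 1 belonged to the 10, Vpreb1 in GMPs. Each share lay below the 0.05 that evenly spread p-values would give, and the cause of this was not tested. DESeq2 and limma voom called none of these tested genes of the 10 either.

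Vpreb1 was at 1.44, 0.755, 0.541 and 0.633 normalized RPKM in WT GMPs and at 0.476, 0.445, 0.448 and 0.271 in KO GMPs. All KO libraries were below all WT libraries. A lack of overlap, in either direction, held for 0.994% of the genes tested in GMPs and for no other gene of the 10. By edgeR the difference was -1.02 on the log2 scale (standard error 0.419, 95% interval -1.95 to -0.09, adjusted p = 1.00), and -1.17 to -0.63 without any 1 library. The exact permutation p of 0.0286, the smallest possible, was 1 of 49 such tests and was not adjusted for them. In CMPs the Vpreb1 log2 fold change was 0.02 (95% interval -1.61 to 1.65).

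Dntt and Flt3 differed little between genotypes in CMPs, where they are highest. Dntt averaged 20.0 ± 1.97 normalized RPKM in WT and 17.2 ± 4.09 in KO CMPs (SD, n = 4 each), which is -0.24 on the log2 scale with a 95% interval of -0.68 to 0.20. KO CMP library 1 was the low one, and without it the log2 fold change was -0.10. Flt3 averaged 36.4 ± 4.50 and 33.2 ± 9.90 normalized RPKM (SD, n = 4 each), which is -0.15 with an interval of -0.67 to 0.37. Without KO CMP library 2 it was 0.0038. KO CMP library 1 was thus the lowest in Dntt and the highest in Flt3. In GMPs the log2 fold changes were -0.98 for Dntt (95% interval -2.66 to 0.71) and -0.13 for Flt3 (-0.59 to 0.33). The Dntt reads in GMPs were 17 to 30 per WT library and 27, 18, 3 and 0 in the KO libraries. Rag2, Il7r and Igll1 had log2 fold changes of 0.19, 0.21 and -0.21 in GMPs and of -0.48, 0.17 and 1.32 in CMPs, and every interval included 0.

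In BMMCs, Il7r averaged 16.7 ± 2.37 normalized RPKM in WT and 17.3 ± 10.3 in KO (SD, n = 5 each). The log2 fold change was 0.04 (95% interval -1.15 to 1.24, adjusted p = 1.00 from edgeR) and 0.34 without KO BMMC library 3. Among the other KO libraries, 3 of 4 were above the highest WT library. That count was made after the values were seen and has no test, and the adjusted p without library 3 was 0.746 from edgeR. Flt3 had 0 to 34 reads in KO and 8 to 14 in WT BMMCs, with a log2 fold change of 0.25 (95% interval -1.15 to 1.65) that was 0.56 without KO library 3, where the gene had 0 reads. No gene of the 10 was without overlap between the genotypes in CMPs or BMMCs, where 0.818% and 0.717% of the genes tested were.

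Whether the change from CMPs to GMPs differed between genotypes was tested as an interaction in a single fit of the 16 progenitor libraries. Of the 10 genes, 7 were tested there, with 0 called, where 0.0% of 15900 genes were called. An unadjusted p under 0.05 was found for 169 of the 15900 genes (1.06%). The difference of log2 fold changes, KO minus WT, was -0.68 for Dntt (95% interval -2.02 to 0.65) and 0.02 for Flt3 (-0.68 to 0.71). For Igll1 it was -1.52 (-3.66 to 0.61), so that its call in WT and not in KO mice is not a shown difference between them. For Rag2 and Vpreb1 it was 0.66 and -1.04, and the adjusted p of each gene was 1.00 from edgeR.

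The regulators around these genes were followed in 3 further lists. Among 20 transcription factors of lymphoid priming and the B lineage, 15 were tested in WT mice, with 3 higher and 1 lower in GMPs and a median log2 fold change of -0.01, where 6.28% of all genes tested were higher and 6.53% lower. The factor with the largest change was Ikzf3, the Ikaros family member Aiolos, with 0, 3, 7 and 9 reads in WT CMPs and 133, 156, 171 and 155 in WT GMPs (log2 fold change 4.92, adjusted p = 0.000102 from edgeR). In KO mice the libraries did not overlap either, with 2, 0, 0 and 0 Ikzf3 reads in CMPs and 103 to 199 in GMPs (adjusted p = 9.75e-05 from edgeR). The fitted log2 fold change of 7.82 there rests on 2 CMP reads in all, and the ratio of the pooled reads per library total was 268 (exact 95% counting interval 73.9 to 2220). The genotype difference of these estimates was 2.89 (SE 1.01) and was not called (adjusted p = 1.00 from edgeR). Spi1, encoding the myeloid and lymphoid factor PU.1, rose by 1.32 on the log2 scale in WT GMPs and by 1.25 in KO GMPs (adjusted p = 4.64e-05 and 0.00210 from edgeR). Id2, an inhibitor of E proteins, was called in WT mice (log2 fold change 1.10, adjusted p = 0.00767 from edgeR) and had 0.99 in KO mice (adjusted p = 0.0489), a difference that the interaction did not call. Bcl11a, a zinc-finger factor needed for B-cell development, fell by 1.02 on the log2 scale in WT mice (adjusted p = 0.000847 from edgeR) and had -0.91 in KO mice, short of 2-fold. In KO mice 16 of the factors were tested, with 2 higher and 0 lower, where 4.04% and 4.38% of all genes tested were. The factors not called in WT mice included Tcf3, which encodes E2A (log2 fold change -0.08), Ikzf1 (0.16), Satb1 (-0.03) and Foxo1 (-0.12). Mef2c was not called either, as it was under 2-fold, but was lower in GMPs at -0.835 in WT mice (adjusted p = 0.00734 from edgeR). In KO mice Mef2c had -0.747 (adjusted p = 0.142 from edgeR). Runx1 and Ikzf2, also not called, had log2 fold changes of 0.457 and 0.465 in WT mice (adjusted p = 0.0559 and 0.11 from edgeR).

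Among 26 genes of lymphoid surface molecules and signalling, 19 were tested in WT mice and 1 was called, where 12.8% of all genes tested were. Notch1, the receptor of T-lineage specification, rose by 1.34 on the log2 scale in WT GMPs (adjusted p = 0.00170 from edgeR) and had 1.13 in KO mice (adjusted p = 0.0357 from edgeR). The list had a median log2 fold change of 0.05 in WT mice and 0.03 in KO mice, where 0 of 18 tested genes were called. Of the 10 partners of the recombinase in V(D)J joining, all were tested. Xrcc5, which encodes the DNA end-binding protein Ku80, fell by 2.17 on the log2 scale in WT mice and by 2.02 in KO mice (adjusted p = 7.75e-05 and 0.000421 from edgeR), and the other 9 were not called, against 12.8% and 8.42% of all genes called. Its dimer partner Xrcc6 had -0.40 in WT mice, under 2-fold. No gene of these 3 lists was called between genotypes in GMPs, CMPs or BMMCs, or in the interaction.

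**Figure D4:**
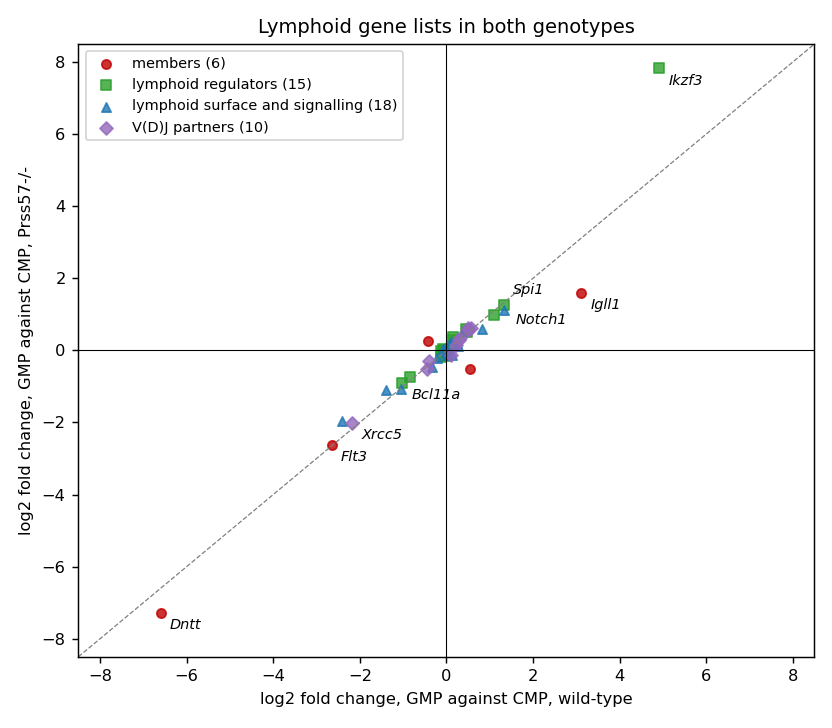
Log2 fold change of GMPs against CMPs in WT (horizontal) and KO mice (vertical) for the genes of 4 lists that were tested in both, which share no library between the axes. Most genes lie near 0 on both axes, with Dntt, Flt3 and Xrcc5 low and Ikzf3 high in both genotypes; the dashed line marks equal values. The vertical place of Ikzf3 is the fit's estimate from 2 reads in KO CMPs.

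Markers of other cells were read in the same libraries, since a few lymphoid cells could carry several of the 10 transcripts. Of 8 mature B and plasma cell markers, Fcer2a was at or under the floor in all progenitor libraries, while Jchain, the joining chain of secreted immunoglobulin, rose by 1.63 on the log2 scale in WT GMPs (20.2 to 46.0 against 5.79 to 13.5 normalized RPKM, adjusted p = 0.00170 from edgeR). In KO mice Jchain had a log2 fold change of 1.22 (adjusted p = 0.159 from edgeR). Sdc1, the plasma cell surface marker syndecan-1, went the other way and fell by 1.70 on the log2 scale in WT GMPs (adjusted p = 0.000142 from edgeR), and Cd22 had -2.42 (adjusted p = 0.0701). The 4 markers of this list that were tested in WT mice thus held 1 higher and 1 lower call, with a median log2 fold change of -0.94. Of all genes tested in WT mice, 6.28% were higher and 6.53% lower. None of the 4 tested in KO mice was called, where 8.42% of all genes tested were. The summed level of these markers was 52.3 to 59.9 CPM in WT CMPs and 47.7 to 104 in WT GMPs. T and NK cell markers summed to 8.85 to 10.8 CPM in WT CMPs and 3.83 to 6.06 in WT GMPs, with 2 of the 4 tested lower in GMPs, where 6.53% of all genes tested were. Markers of plasmacytoid dendritic cells, which can express Dntt and the Rag genes, summed to 2.06 to 3.73 CPM in WT CMPs and 0.544 to 1.54 in WT GMPs. Klk1 was at or under the floor in all of these libraries. The 1 marker tested was not called, where 12.8% of all genes tested were. Dntt alone averaged 53.0 CPM in WT CMPs. Multipotent and stem cell markers summed to 1489 to 1739 CPM in WT CMPs and 1103 to 1232 in WT GMPs. Of these, 2 of 8 were lower in GMPs, where 6.53% of all genes tested were. Mast cell markers were higher in GMPs for 5 of 5 tested, where 6.28% of all genes tested were. The part of any of these cells in the levels of the 10 genes was not tested.

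The genes most like Flt3 across the 16 progenitor libraries, after the group means were taken out of the log2 CPM, were Mettl13 (r = 0.903), Ehd3 (0.892), Hoxa7 (0.882), Slc14a1 (0.880) and Gpalpp1 (0.880), out of 15900 genes. Without KO CMP library 2 the order of these 5 changed, to Ehd3 (0.911), Slc14a1 (0.890), Mettl13 (0.878), Gpalpp1 (0.847) and Hoxa7 (0.841). For Dntt they were Pcdhga5 (0.850), Gm9256 (0.842), Ntn4 (0.836), Scml4 (0.831) and Hectd2 (0.818). Without that library the Dntt values were 0.831 to 0.852. For Il7r they were Hexdc (0.836), Podxl2 (0.797), Cdkn1c (0.784), Trim21 (0.772) and Spsb1 (0.764), and the Il7r values rest on 41 or fewer reads a library. Among the 10 genes themselves, Flt3 and Dntt had r = 0.432, Flt3 and Rag2 0.568, and Vpreb1 and Igll1 -0.038. The points share library preparation and depth, the strongest of so many genes are high by selection, and the values are given as a description only.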

How the data were processed

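RNA of sorted progenitors and BMMCs was sequenced as 50-base single-end reads from stranded total RNA libraries. Per the labels and the study's methods, the authors used HTSeqGenie, with GSNAP as the aligner and GRCm38 as the genome, and counted exonic reads that aligned uniquely. The deposited counts are raw reads per gene. The deposited normalized RPKM values are these counts per gene length and size factor. Alignment and counting were not repeated.

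Counts were compared in R 4.3.3 with edgeR 4.0.16 (TMM, filterByExpr, robust quasi-likelihood test, Benjamini-Hochberg adjustment over all genes tested). The study itself used voom and limma. Genes with an adjusted p under 0.01 and at least 2-fold were called, and the interaction at an adjusted p under 0.01. Exact two-sided permutation tests on normalized RPKM (49 in all, smallest p 0.0286 for 4 against 4 and 0.00794 for 5 against 5) used scipy 1.17.1. Alternatives were RLE factors, library size alone, no filter beyond 1 count, limma 3.58.1 voom, DESeq2 1.42.0, replicate number as a block, and each library left out. The fits were tested on simulated data. The floor was 3 counts per library, which covers counting error only. Tables and figures used Python 3.11.15, pandas 2.3.3, numpy 2.4.6 and matplotlib 3.10.9.

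The members and lists were chosen with earlier results of these data known. All members are named. From the lists, at most 4 called genes of largest change in WT mice per list were named. Cd79b, Crlf2, Il2rg, Ighm, Jchain, Sdc1, Cd22, Ms4a1, Fcer2a, Klk1, Tcf3, Ikzf1, Satb1, Foxo1 and Xrcc6 were named after their values were seen. The same holds for Mef2c, Runx1, Ikzf2, Cd74, Cr2 and Vpreb2. Gene positions are from GENCODE M21 (GRCm38) and promoters from RefSeq (GRCm38.p6), where all 10 members were found. Likeness was Pearson's r on log2 CPM (prior count 2).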

Additional observations from a re-analysis of the deposited data

Results flagged for a closer look

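Over 35 sets of a gene and a group of 4 or 5 libraries with a median above 3 reads, 2 sets held a library that lay far from the others by Dixon's criterion at 95%. Chance alone gives such a library in about 1 of 20 sets.

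Dntt in KO CMP library 1 was the lowest of its group, at 11.1 normalized RPKM against 19.1 to 19.5 in the other 3 libraries, a gap of 0.956 of the whole range. The library held 1544 Dntt reads, so the value does not rest on few reads. In CPM it was the lowest as well, at 31.7, but lay beside library 2 at 35.8, with 51.0 and 47.9 in libraries 3 and 4. How far it stood apart thus depended on the scaling. KO CMP library 1 had the highest Flt3 level of the KO CMP libraries, 46.0 normalized RPKM, and the most Cd79a reads, 32. Its top 10 genes took 4.61% of its reads, the lowest share among CMP libraries.

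Vpreb1 in KO GMP library 4 was the lowest of its group, at 0.271 normalized RPKM against 0.445 to 0.476, a gap of 0.849 of the range. It rests on 8 reads. The same library held 13 Igll1 reads, the fewest among KO GMPs, and 0 Dntt reads.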

How the results depend on the processing

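The calls of Dntt and Flt3 held under all 14 alternatives in each genotype. No gene of the 10 that edgeR tested was called between genotypes or in the interaction under any alternative. Members that edgeR did not test in a comparison were not recomputed there. Of 522 values recomputed for the tested members, 454 kept direction and call, 58 changed sign and 10 lost the call. The 10 were all Igll1 in WT mice, in the 8 fits without a library, with library size alone (adjusted p = 0.0107) and with limma voom (0.0150). The number of genes called between KO GMPs and CMPs was 1259, and 2156 with DESeq2 and 785 to 2266 without any 1 library (2266 without KO CMP library 1). Between genotypes, DESeq2 called 2 genes in GMPs and 3 in CMPs against 1 in each, and leaving out a library gave 1 to 2 in GMPs. Library size alone moved the median log2 fold change of all genes in WT GMPs against CMPs to -0.16. The cause of these moves was not tested.

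All sign changes were in genes that were not called. In GMPs against CMPs, Il7r went to -0.12 in WT with library size alone, and in KO to -0.0084 with library size alone, -0.22 with limma voom and -0.12 with the replicate block. Without any 1 library, Il7r ranged from -0.26 to 0.65 in WT and from -0.38 to 0.39 in KO, and Vpreb1 from -0.83 to 0.072 in KO. Between genotypes in CMPs, Vpreb1 went to -0.082 with library size alone and -0.046 with limma voom, and without any 1 library Vpreb1 ranged from -0.52 to 0.44, Il7r from -0.12 to 0.80 and Flt3 from -0.37 to 0.0038. In GMPs, Igll1 ranged from -0.68 to 0.37 and Il7r from -0.23 to 0.54. In BMMCs, Flt3 went to -0.42 and Il7r to -0.38 with limma voom, and to -0.079 and -0.25 with the replicate block, with ranges of -0.23 to 0.56 and -0.20 to 0.34 without any 1 library. In the interaction, Il7r went to -0.40 with limma voom and -0.039 with the replicate block and Cd79a to -0.083 with the block, with ranges of -0.58 to 0.36 for Il7r, -0.33 to 1.13 for Cd79a and -0.16 to 0.24 for Flt3.

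The groups share replicate numbers, and not every pair of same-numbered libraries deviated together. Correlations were over 0.1 in 2 of 4 pairs in GMPs against CMPs of each genotype and between genotypes in GMPs, 3 of 4 in CMPs and 1 of 5 in BMMCs. Their means were 0.133, 0.183, -0.014, 0.156 and -0.057, against -0.047, -0.059, 0.009, -0.056 and 0.024 for other pairs, and 1, 1, 1, 3 and 1 libraries correlated best with their own number. With the replicate block, 2000 and 1311 genes were called in GMPs against CMPs in WT and KO mice, 1 between genotypes in GMPs and in CMPs, and 0 in BMMCs and in the interaction. The block changed no call of the 10 genes. Of the listed regulators, Ikzf3, Spi1, Notch1 and Xrcc5 kept their WT call under all 14 alternatives, which were applied to them after the data were seen. Id2 lost it under 5 and Bcl11a under 4, where its log2 fold change was -0.98 to -0.86. In KO mice Spi1 lost its call with library size alone, Notch1 gained one with DESeq2 and without KO CMP library 1, and Bcl11a gained one without KO CMP library 2. Counts of 3 or fewer reads limit what can be said of Rag1, Ebf1 and Pax5.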
